A study of Oryza sativa with 3 samples.

Results

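Peaks of 5-hydroxymethylcytosine (5hmC) were compared between the hybrid rice cultivar LYP9 and its pollen parent 93-11. 5hmC is the oxidised form of 5-methylcytosine. In mammals it is made by TET dioxygenases. Plants have no known TET homologue, and how much 5hmC plant DNA holds is debated. Plant 5-methylcytosine is best known for its density over transposons and other repeats. The labelling used here places a modified glucose on the hydroxymethyl group with a β-glucosyltransferase, so that tagged fragments can be pulled down through biotin.

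LYP9 comes from a cross in which PA64s, a male-sterile line, gives the seed and 93-11, an indica line, the pollen, and its nuclei carry 1 genome of each. DNA came from panicles 3 to 4 mm long, collected at the same time in a field, and was sheared to 200 to 300 bp. Each line had 1 library and no control file, so differences between lines have no replicate check and no test is given. All libraries were labelled in the same way, and no treatment separated them. The LYP9 library held 10078296 tags and the 93-11 library 10007148. The PA64s library, with 11948210 tags, was used to look up peaks and ratios of the other lines, and its pairs with LYP9 are set beside theirs. Without a control, a place that attracts tags for any reason is listed like one that holds 5hmC.

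The comparison took all peaks on chromosomes 1 to 12, which were 3489 peaks in LYP9 and 3970 in 93-11, or 7459 of the 10250 peaks in the series. Peaks on the chloroplast and mitochondrial sequences were left out. A peak counted as shared where it overlapped a peak of the other list by 1 bp or more. Neither headers nor labels name a genome build, so regions are given by the files' own coordinates, counted from 1, and genes and sequences are not used here.

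Most peaks of the hybrid were also peaks of its pollen parent. Of the LYP9 peaks, 2508 (71.9%, exact 95% interval 70.4 to 73.4) were shared with 93-11. Of the 93-11 peaks, 2501 (63.0%, 61.5 to 64.5) were shared with LYP9. This left 981 peaks in LYP9 and 1469 in 93-11 that the other list lacked. Intervals of shares and of single ratios, here and below, cover counting error only. Those of medians cover the scatter of pairs taken as independent. None covers the difference that a second library of the same line would show. Since the LYP9 list is the shorter, it had fewer peaks in which a 93-11 peak could recur.

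Shared peaks carried 83.4% of the summed pileup of the listed nuclear peaks in LYP9 and 77.6% of it in 93-11. The pileup is the authors' count of extended tags at a peak's summit. The median pileup of shared peaks was 28 tags in LYP9 and 30 in 93-11. Peaks in 1 list only had medians of 17 tags in LYP9 and 18 in 93-11. They were also shorter, with median lengths of 90 bp in LYP9 and 94 bp in 93-11, against 113 bp and 119 bp for the shared peaks of the same lines.

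Sharing rose steeply with the pileup in both lists. In the lowest quartile of each list, which held peaks of 10 to 18 tags, 38.4% of 962 LYP9 peaks and 27.5% of 1139 93-11 peaks were shared. For peaks of 19 to 23 tags the shares were 66.5% in LYP9 and 50.9% in 93-11. From 24 to 36 tags they were 89.1% in LYP9 and 81.8% in 93-11. In the highest quartile, from 37 tags upwards, 97.3% (96.0 to 98.3) of 866 LYP9 peaks and 95.9% (94.5 to 97.1) of 979 93-11 peaks were shared. Strong peaks without a counterpart were thus few: 23 in LYP9 and 40 in 93-11.

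Longer peaks were shared more often, also among peaks of low pileup. Of peaks under 100 bp, 59.4% (56.9 to 61.9) were shared in LYP9 and 47.1% (44.6 to 49.6) in 93-11. Of peaks of 200 bp or more, 92.7% (90.03 to 94.8) were shared in LYP9 and 89.4% (86.6 to 91.8) in 93-11. A longer peak offers more bases that can overlap. Within the lowest pileup quartile, 71.2% of the 52 LYP9 peaks and 57.1% of the 77 93-11 peaks of 200 bp or more were shared. The shares of peaks under 100 bp in that quartile were 30.6% of 481 in LYP9 and 21.7% of 521 in 93-11.

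**Figure D1:**
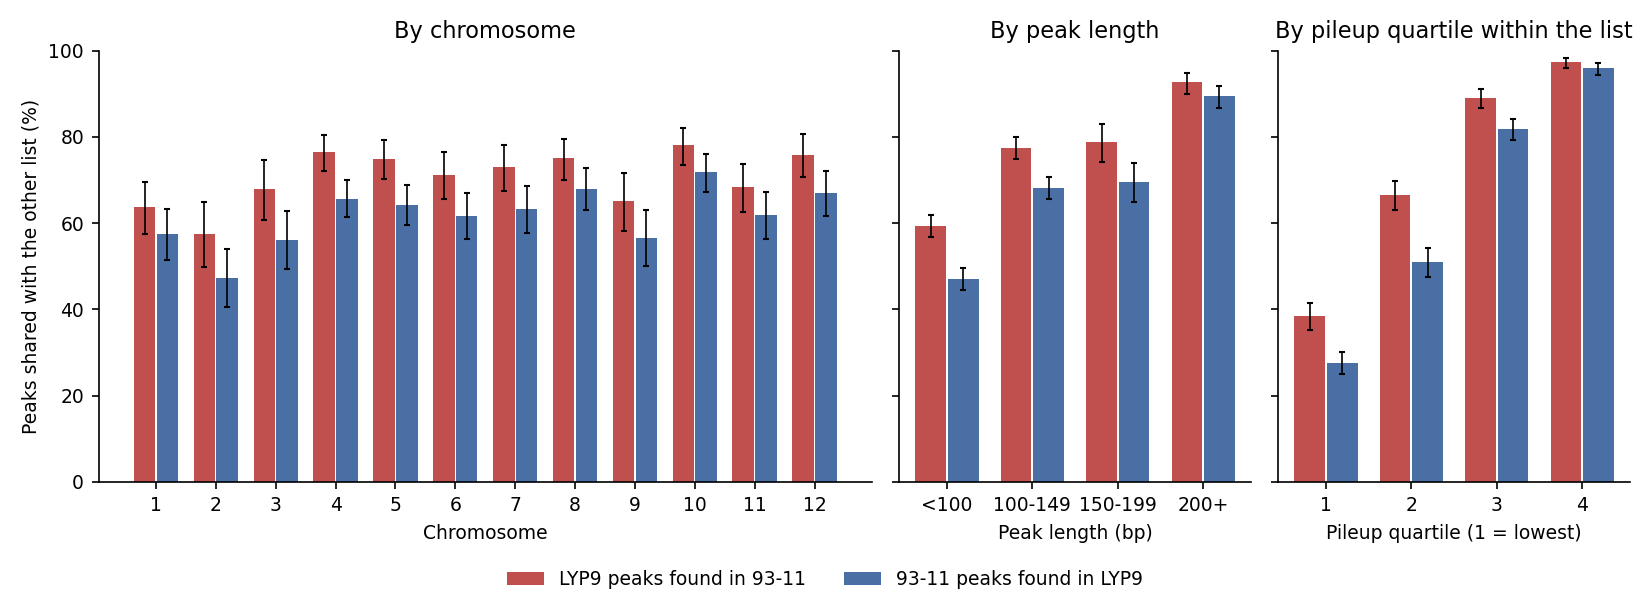
Share of nuclear peaks that overlap a peak of the other list (y axis, %), by chromosome, peak length and pileup quartile, with LYP9 peaks as the left and 93-11 peaks as the right bar of each pair. Error lines are exact 95% intervals for counting error. Chromosome 2 is lowest in both lists, and the highest pileup quartile reaches 97.3% in LYP9 and 95.9% in 93-11.

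The chromosomes differed in how many peaks were common to both lines. Chromosome 10 had the highest share, 78.1% (73.6 to 82.1) of 383 LYP9 peaks and 71.8% (67.2 to 76.1) of 415 93-11 peaks. Chromosome 2 had the lowest, 57.5% (49.9 to 64.9) of 179 LYP9 peaks and 47.3% (40.5 to 54.1) of 220 93-11 peaks. Chromosomes 1, 3 and 9 were also low, with 67.9% in LYP9 and 56.1% in 93-11 on chromosome 3, 63.7% in LYP9 and 57.4% in 93-11 on chromosome 1 and 65.0% in LYP9 and 56.6% in 93-11 on chromosome 9. Chromosome 4, the one with the most peaks, had 76.4% in LYP9 and 65.7% in 93-11. At the ends of this order the median pileup differed too. It was 32 tags in LYP9 and 30 in 93-11 on chromosome 10, and 19 tags in both on chromosome 2. Between them it did not always follow the shares. In LYP9 it was 24 tags on both chromosome 3 and chromosome 4. In 93-11 it was 22 tags on chromosomes 3 and 9 and 21 on chromosome 11, where 61.9% were shared. The part of pileup in the order of the chromosomes was not tested.

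Sharing was also counted by the density of peaks. In windows of 1 Mb with fewer than 10 peaks of the lists together, 44.7% (39.3 to 50.1) of 338 LYP9 peaks and 33.6% (29.3 to 38.2) of 446 93-11 peaks were shared. In the 11 windows with 80 or more, 83.6% (80.7 to 86.1) of 754 LYP9 peaks and 79.3% (76.3 to 82.0) of 786 93-11 peaks were. The median pileup in these dense windows was 33 tags in both lines, against 19 in LYP9 and 17 in 93-11 in the sparse ones. A shared place adds a peak of each list to its window, so sharing itself in part sets the density class. The classes were chosen after the values were seen.

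The surplus of 93-11 peaks was spread over the genome. Of the 374 windows of 1 Mb that held a peak of either line, LYP9 had more peaks in 93, both had as many in 66, and 93-11 had more in 215. The largest surplus of 93-11 lay at 6 to 7 Mb of chromosome 8, with 62 peaks in LYP9 and 76 in 93-11. It was followed by 0 to 1 Mb of chromosome 9, with 19 peaks in LYP9 and 31 in 93-11, and 9 to 10 Mb of chromosome 5, with 36 in LYP9 and 46 in 93-11. Surpluses of LYP9 were smaller and reached 5 peaks in 4 windows. Those windows held 7 LYP9 peaks and 2 of 93-11 at 37 to 38 Mb of chromosome 1, and 54 of LYP9 and 49 of 93-11 at 29 to 30 Mb of chromosome 5. At 29 to 30 Mb of chromosome 6 they were 8 in LYP9 and 3 in 93-11, and at 4 to 5 Mb of chromosome 7 they were 6 in LYP9 and 1 in 93-11.

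The longest run along a chromosome without any LYP9 peak or shared peak between was 10 peaks of 93-11 on chromosome 4, from 26092675 to 28166135. Their pileups lay between 11 and 18 tags, and 1 of the 10 overlapped a PA64s peak. The longest runs of LYP9 had 6 peaks, one between 29605475 and 29832978 of chromosome 6 and one between 7070630 and 7418518 of chromosome 9. Their pileups lay between 12 and 21 tags on chromosome 6 and between 11 and 25 tags on chromosome 9. A PA64s peak overlapped none of the 6 on chromosome 6 and 2 of those on chromosome 9.

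A part of the peaks in 1 list only lay next to a peak of the other. Within 500 bp of one were 182 of the 981 LYP9 peaks (18.6%) and 233 of the 1469 93-11 peaks (15.9%). The median distance was 11171 bp for LYP9 and 16890 bp for 93-11. At a pileup of 30 tags or more, 47 of 1229 LYP9 peaks (3.82%, 2.82 to 5.05) and 77 of 1359 93-11 peaks (5.67%, 4.50 to 7.03) lacked a counterpart. Of these, 22 in LYP9 and 37 in 93-11 lay over 500 bp from any peak of the other list.

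Peaks that LYP9 had and 93-11 lacked could be looked up in the seed parent. Of the 981, 162 (16.5%, 14.2 to 18.99) overlapped a PA64s peak, and of the 1469 peaks that 93-11 had and LYP9 lacked, 125 (8.51%, 7.13 to 10.1) did. Over all nuclear peaks, 1583 of 3489 in LYP9 (45.4%) and 1550 of 3970 in 93-11 (39.04%) overlapped a PA64s peak. Among shared peaks 1421 of 2508 in LYP9 (56.7%) and 1425 of 2501 in 93-11 (57.0%) did, so peaks in 1 list only lay on a PA64s peak less often than peaks in general in both lines. The 162 had a median pileup of 19 tags in LYP9, and the other 819 had 16. At 30 tags or more, 20 of the 47 LYP9 peaks and 17 of the 77 93-11 peaks overlapped a PA64s peak. Of those over 500 bp from any peak of the other list, 9 of 22 in LYP9 and 7 of 37 in 93-11 did. The share over all peaks of 30 tags or more was not counted, so these counts have no base at that height. In the whole lists, peaks with a PA64s peak had median pileups of 35 tags in LYP9 and 37 in 93-11. Those without one had 19 in LYP9 and 20 in 93-11.

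The 5 highest-scoring LYP9 peaks absent from 93-11 all had a PA64s peak on the same place. Of all 981 LYP9 peaks absent from 93-11, 162 (16.5%) did, and of those with 30 tags or more, 20 of 47. The highest lay on chromosome 12 from 12001208 to 12001456. It had 47 tags in LYP9 and a fold enrichment of 22.5 over the caller's background, against 98 tags in PA64s and no peak in 93-11 within 7649 bp. A neighbour on chromosome 12, from 11990915 to 11991028, had 33 tags in LYP9 and 111 in PA64s. From 100 kb before the first of them to 100 kb after it, LYP9 had 12 peaks, 93-11 had 10 and PA64s 29. Of the 7 peaks there that LYP9 had and 93-11 lacked, 6 overlapped a PA64s peak, the named peak and its neighbour among them.

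The next of these peaks lay on chromosome 1 from 16912137 to 16912363, with 41 tags in LYP9 and 117 in PA64s. It lay 948 bp from a 93-11 peak. Within 100 kb on either side, all 6 LYP9 peaks absent from 93-11 overlapped a PA64s peak, among 26 peaks in LYP9, 23 in 93-11 and 37 in PA64s. The named peak is among these 6. Both surroundings were chosen after their values were seen, around peaks already known to overlap a PA64s peak. Their counts are thus in part set by that choice. The peak on chromosome 12 from 20618198 to 20618294, with 86 tags in LYP9 and 115 in PA64s, was only 227 bp from a 93-11 peak. The last, on chromosome 9 from 5722288 to 5722383, had 31 tags in LYP9 and 19 in PA64s. Of the 5 it alone had fewer tags in PA64s than in LYP9, unscaled for the larger PA64s library.

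The 5 highest-scoring 93-11 peaks absent from LYP9 were mostly absent from PA64s too. So were 1344 (91.5%) of all 1469 93-11 peaks that LYP9 lacked. A peak on chromosome 2 (23141739 to 23141870) and one on chromosome 7 (6526287 to 6526553) had 44 tags each in 93-11. A peak on chromosome 12 from 20511101 to 20511208 had 79 tags and lay 2492 bp from a LYP9 peak. Another on chromosome 7 from 9655681 to 9655939 had 39 tags. The remaining one, on chromosome 3 from 3952026 to 3952130, had 41 tags in 93-11 and 21 in PA64s, and a LYP9 peak lay 153 bp away. None of the other 4 had a LYP9 peak within 500 bp or a PA64s peak on the same place.

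Pairs of shared peaks were then compared by height. Each peak entered at most 1 pair, with the peak it overlapped most, which gave 2480 pairs. This left 28 shared LYP9 peaks and 21 shared 93-11 peaks outside a pair. In 2432 pairs (98.1%) neither peak overlapped any other. The summits lay close, with a median distance of 5 bp and at most 10 bp in 66.7% of pairs. The pileup was scaled to 1000000 tags of the library, so that 1 tag is worth 0.0992 in LYP9 and 0.0999 in 93-11, and a pair with equal tags has a ratio of 0.993.

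Shared peaks were nearly as high in the hybrid as in its pollen parent, and slightly lower on average. The median scaled pileup was 2.78 in LYP9 and 3.00 in 93-11. The median ratio of LYP9 over 93-11 was 0.942 (95% interval of the median over pairs 0.938 to 0.948), and the middle 50% of pairs lay between 0.827 and 1.06. LYP9 had fewer tags than 93-11 in 1486 pairs, as many in 157 and more in 837. After scaling, the 157 equal pairs fall below 1 as well, and LYP9 was below 93-11 in 1643 of 2480 pairs (66.2%). Across pairs the log2 pileups had a Pearson correlation of 0.93 and a Spearman correlation of 0.91 (n = 2480 pairs of 1 library each, so that depth and regional background are shared by all points).

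The size of this shift depends on the scale. Tags were extended to 83 bp in 93-11 and to 81 bp in LYP9, a ratio of 0.976 that bears on every pileup. With the pileup divided by this length too, the median ratio was 0.965. With the deposited fold enrichment, which divides by the regional background of the same library, it was 0.983, with LYP9 above 93-11 in 1144 pairs and below it in 1330.

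Few pairs differed by much. A ratio of 1.5 or more was reached by 23 pairs, or 0.927% of all, and a ratio of 1/1.5 or less by 109 pairs, or 4.4%. On the fold enrichment scale these counts were 33 higher in LYP9 and 65 lower. Past 2-fold were 3 pairs higher in LYP9 and 4 lower. The exact 95% interval of the ratio, which treats pileups as independent counts, lay above 1 in 8 pairs (0.323%) and below 1 in 38 (1.53%).

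**Figure D2:**
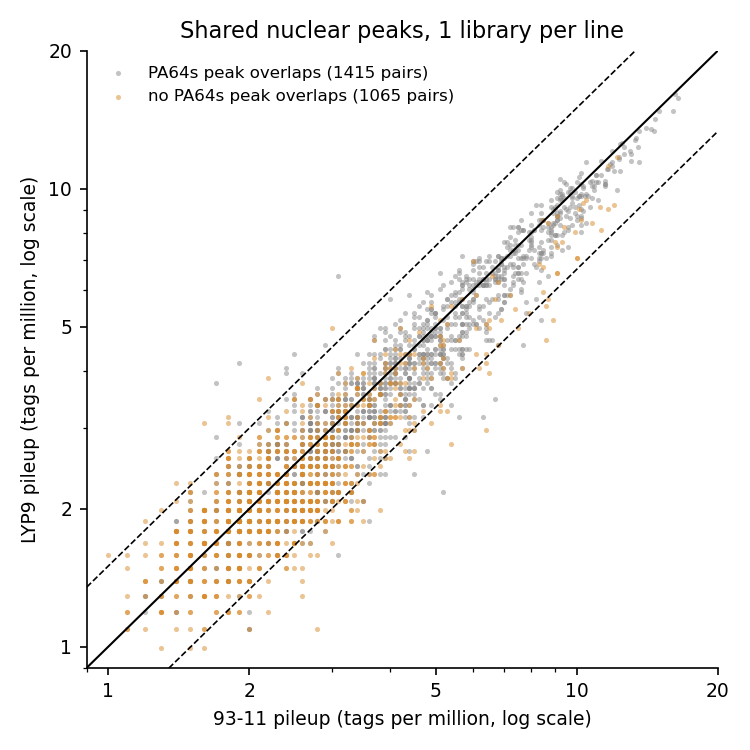
Pileup, scaled to 1000000 tags of the library, of 2480 shared nuclear peaks in LYP9 (y axis, log scale) against 93-11 (x axis, log scale), 1 point per pair, with grey points where a PA64s peak overlaps the pair and orange points where none does. The solid line marks equality and the dashed lines 1.5-fold; 23 pairs lie on or above the upper and 109 on or below the lower one.

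The ratio varied little by chromosome. The medians lay between 0.925 on chromosome 12 and 0.956 on chromosome 10. All 12 lay below 1, and the interval of each held the median of all pairs. On chromosome 12 it ran from 0.891 to 0.950 and on chromosome 10 from 0.931 to 0.972. On the fold enrichment scale the medians of chromosomes 3 and 10 were 1.01 and the others lay below 1. Pairs lower in LYP9 by 1.5-fold or more made up 6.70% (3.796 to 10.8) on chromosome 12 and 6.09% (3.19 to 10.4) on chromosome 11. On chromosomes 7 and 10 they made up 1.99% (0.545 to 5.02) and 2.03% (0.747 to 4.36). The interval of chromosome 10 ended just below the 4.4% of all pairs, and those of the other 11 held it.

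Peak length made as little difference to the ratio. By the mean length of the pair, the median was 0.946 (0.941 to 0.955) under 100 bp, 0.943 (0.934 to 0.959) from 100 to under 150 bp, 0.921 (0.889 to 0.945) from 150 to under 200 bp and 0.939 (0.927 to 0.952) from 200 bp upwards. The order depends on whose length sets the class. By the length of the LYP9 peak, the class under 100 bp had a median of 0.919, and by that of the 93-11 peak 0.993. In most pairs the LYP9 peak was listed as the shorter. The LYP9 peak was the longer in 838 pairs and the 93-11 peak in 1573, with a median difference of LYP9 minus 93-11 of -4 bp and a median length of 113 bp in LYP9 and 119 bp in 93-11. The shortest listed peak equals the extension length, 81 bp in LYP9 and 83 bp in 93-11. With this length taken off each peak, LYP9 was the longer in 990 pairs and 93-11 in 1391, with a median difference of -2 bp.

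**Figure D3:**
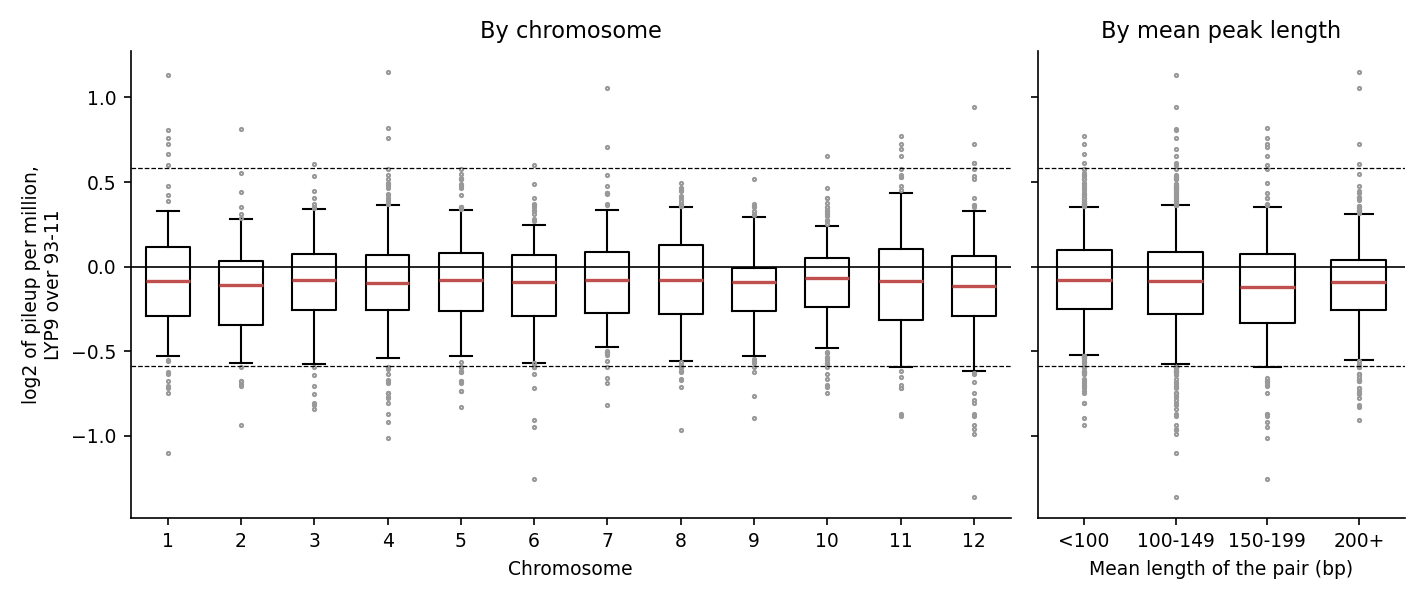
Distribution of the log2 ratio of scaled pileup, LYP9 over 93-11 (y axis), by chromosome and by mean peak length, over 2480 pairs. Boxes span the quartiles with the median in red, whiskers run from the 5th to the 95th percentile, points lie outside, and dashed lines mark 1.5-fold; every median lies below 0.

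The 8 pairs with the lowest ratios had between 11 and 35 tags in LYP9 and between 26 and 67 in 93-11. They were taken from the 2191 pairs with 20 tags or more in at least 1 library. These 8 pairs and the 8 highest were picked by the ratio itself. Their intervals are made for a pair not so picked, so an interval that leaves out 1 is no support for them. The lowest was on chromosome 12, from 16303421 to 16303501 in LYP9, with 11 tags in LYP9 and 28 in 93-11. Its ratio was 0.390 (0.175 to 0.808), the 93-11 peak was 214 bp long against 81 bp in LYP9, and PA64s had no peak there. The second, on chromosome 6 from 10175424 to 10175560, had 22 tags in LYP9 and 52 in 93-11, a ratio of 0.420 (0.243 to 0.704), with 22 tags in PA64s.

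The tallest of the low pairs without a PA64s peak lay on chromosome 1 from 12470726 to 12470831. It had 30 tags in LYP9 and 64 in 93-11, a ratio of 0.465 (0.291 to 0.729), and the summits coincided. A pair on chromosome 12 from 13353035 to 13353145 had 28 tags in LYP9 and 54 in 93-11, and one on chromosome 12 from 11695055 to 11695142 had 32 in LYP9 and 63 in 93-11. On chromosome 6, the pair from 21743958 to 21744176 had 35 in LYP9 and 67 in 93-11. The others, from 31406069 to 31406200 of chromosome 4 and from 9577260 to 9577398 of chromosome 8, had 13 and 16 tags in LYP9 and 26 and 31 in 93-11. The interval of the chromosome 4 pair, 0.234 to 1.002, reached above 1. Of the 8 pairs, 4 had a PA64s peak, beside 1415 of all 2480 pairs.

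The 8 pairs with the highest ratios had between 31 and 65 tags in LYP9 and between 16 and 31 in 93-11. The highest was on chromosome 4 from 1099908 to 1100227, with 38 tags in LYP9 and 17 in 93-11, a ratio of 2.22 (1.22 to 4.19). The LYP9 peak was 320 bp long and the 93-11 peak 109 bp. The second, on chromosome 1 from 16911088 to 16911289, had 42 tags in LYP9, 19 in 93-11 and 117 in PA64s. It is a close neighbour of the chromosome 1 peak that LYP9 and PA64s had and 93-11 lacked.

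The next pair, on chromosome 7 from 17955070 to 17955977, had 65 tags in LYP9, 31 in 93-11 and 70 in PA64s. Its LYP9 peak, 908 bp long, overlapped more than 1 peak of 93-11. The remaining 5 had ratios from 1.71 to 1.92, and the intervals of 2 of them reached below 1. They lay on chromosomes 1, 2, 4, 11 and 12 and had 31 to 44 tags in LYP9 and 16 to 25 in 93-11. The tallest, on chromosome 1 from 13682618 to 13682751, had 44 tags in LYP9 and 25 in 93-11. In 7 of the 8 pairs the LYP9 peak was the longer, against 2 of the 8 with the lowest ratios and 838 of all 2480 pairs (33.8%). A PA64s peak overlapped 4 of the 8, as many as among the lowest pairs, beside 1415 of all 2480 pairs.

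The lists could be read further with the seed parent, whose peaks the comparison of LYP9 with 93-11 did not use. Shared pairs where PA64s had no peak had lower ratios than those where it had one, except under 20 tags, and the gap was widest from 50 tags upwards. Over all pairs the median ratio was 0.922 (0.907 to 0.943) for 1065 pairs without a PA64s peak and 0.948 (0.941 to 0.955) for 1415 pairs with one. Without a PA64s peak 7.32% (5.83 to 9.06), and with one 2.19% (1.49 to 3.10), were lower in LYP9 by 1.5-fold or more, against 4.4% of all pairs. Higher in LYP9 by that fold were 1.13% without and 0.777% with a PA64s peak, against 0.927% of all.

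Pairs without a PA64s peak were also weaker, with a median of 22 tags in LYP9 and 24 in 93-11, against 37 in LYP9 and 39 in 93-11 for the rest. The difference was therefore taken within classes of the mean pileup of the pair. Under 20 tags the median ratio was 0.993 without and 0.943 with a PA64s peak. From 20 to under 30 tags it was 0.907 without and 0.950 with one, and from 30 to under 50 tags 0.908 without and 0.939 with one. From 50 to under 80 tags it was 0.764 (0.701 to 0.825) for 35 pairs without and 0.957 (0.940 to 0.977) for 287 pairs with a PA64s peak. At 80 tags or more it was 0.837 (0.781 to 0.906) for 21 and 0.953 (0.939 to 0.965) for 163 pairs. Weak pairs are listed only where both lines passed the caller's cutoff, which leaves out those with a low value in either line. The part of this in the lower classes was not tested.

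Of the strong pairs, with a mean pileup of 50 tags or more, 42 had no PA64s peak within 500 bp. This set of pairs, and its split by fold enrichment below, were chosen after the values were seen. By scaled pileup LYP9 was below 93-11 in 41 of these 42 pairs. Their median pileup was 64.5 tags in LYP9 and 86.5 in 93-11, and the median ratio was 0.786 (0.720 to 0.816). The 450 strong pairs with an overlapping PA64s peak had medians of 70 tags in LYP9 and 73 in 93-11 and a median ratio of 0.954 (0.943 to 0.963), with LYP9 below 93-11 in 303. Another 14 strong pairs had a PA64s peak within 500 bp but none on the same place, and their median was 0.928 (0.764 to 1.01). On the fold enrichment scale the median ratio of the 42 pairs was 0.864, against 1.02 for the 450, and LYP9 was above 93-11 in 12 of the 42. The median on that scale was 0.794 for the 24 pairs with a fold enrichment of 8 or more in LYP9 and 1.03 for the 18 with less, of which 10 were higher in LYP9. Leaving out each chromosome in turn gave medians from 0.721 to 0.804 for the 42 pairs.

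**Figure D4:**
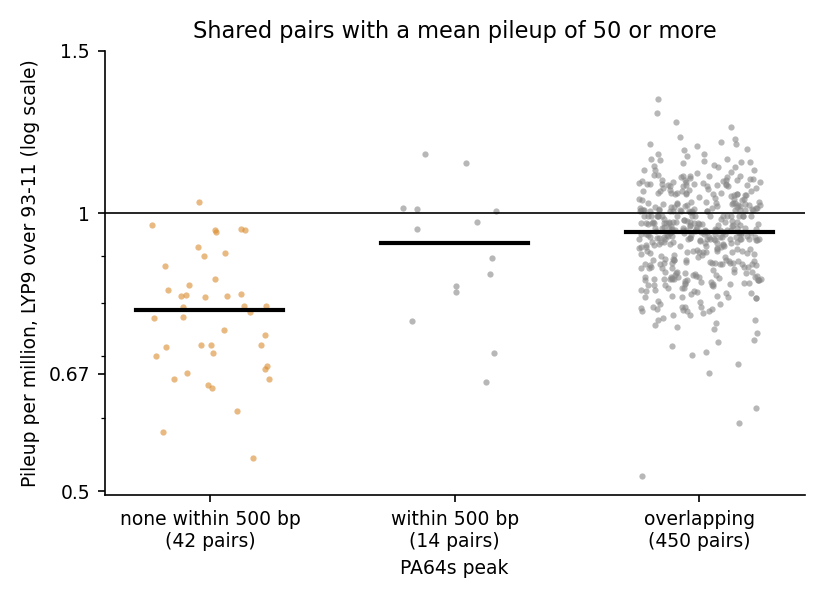
Ratio of scaled pileup, LYP9 over 93-11 (y axis, log scale), for the 506 shared pairs with a mean pileup of 50 tags or more, by whether PA64s has a peak (x axis), 1 point per pair with the median as a bar. The medians are 0.786 with no PA64s peak within 500 bp, 0.928 with one within 500 bp and 0.954 with an overlapping one. The cut and the classes were chosen after the values were seen.

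Of these 42 pairs, 24 lay in 3 groups of 5 or more with less than 100 kb between neighbours, so they are not independent sites. The interval given for the median of the 42 treats them as if they were. On chromosome 12, 7 pairs between 13341650 and 13409477 had 44 to 94 tags in LYP9 and 64 to 117 in 93-11, with a median ratio of 0.772. The lowest ratio of this group belonged to the pair from 13402070 to 13402195, with 52 tags in LYP9 and 89 in 93-11 and a ratio of 0.580 (0.404 to 0.826). Every pair of the group was lower in LYP9 on both scales, with a median ratio of 0.791 by fold enrichment, and PA64s had 4 peaks elsewhere in the span.

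Another 8 pairs on chromosome 12, between 20472505 and 20635072, had 47 to 93 tags in LYP9 and 69 to 120 in 93-11. By scaled pileup all 8 were lower in LYP9, with a median ratio of 0.734. By fold enrichment 3 of the 8 were higher in LYP9 and the median ratio was 0.882. The lowest of the 42 was among them, from 20634942 to 20635072, with 47 tags in LYP9 and 86 in 93-11 and a ratio of 0.543 (0.372 to 0.783). In the same span PA64s had 18 peaks.

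On chromosome 4 a group of 9 pairs between 19219155 and 19233802 stood on a high background, with fold enrichments of 1.73 to 2.97 in LYP9 and 1.64 to 2.89 in 93-11. They had 63 to 113 tags in LYP9 and 68 to 117 in 93-11 and a median ratio of 0.898, nearer to 1 than the other groups. By fold enrichment the direction turned, with a median ratio of 1.03 and 6 of the 9 pairs higher in LYP9. PA64s had no peak in this span. Outside the groups, 2 neighbours on chromosome 8, from 9278194 to 9278306 and from 9279808 to 9279949, had 42 and 58 tags in LYP9 and 64 and 87 in 93-11. The one pair of the 42 that was not lower in LYP9 was on chromosome 4 from 10377869 to 10377984, with 56 tags in LYP9 and 54 in 93-11. These groups and pairs were chosen after their values were seen. The 18 pairs outside the 3 groups had a median ratio of 0.729 (0.672 to 0.814), and 17 of them were lower in LYP9. By fold enrichment their median ratio was 0.812, with 15 lower in LYP9.

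The spread of the pairs was set beside that of independent counts. The SD of the log2 ratio over all 2480 pairs was 0.28, while independent counts of the same size would give 0.38. At 80 tags or more it was 0.13 against 0.21. For 1571 pairs of LYP9 and PA64s made in the same way, which share the LYP9 library, the SD was 0.42 against 0.37 from counting. At 80 tags or more it was 0.38 against 0.21. The median ratio of LYP9 over PA64s was 1.29, with 26.9% of pairs higher in LYP9 by 1.5-fold or more and 2.16% lower. The alignments are named as non-redundant in the headers, which is a step that all 3 libraries share, and pairs are listed where both lines passed the cutoff. Pileups also neared a ceiling. If 1 tag is kept per position and strand, a summit can hold at most 2 tags for each base of the extension length, which is 162 in LYP9 and 166 in 93-11, and the highest nuclear pileups were 162 in LYP9 and 165 in 93-11. Without the 4 pairs at over 90% of it, a check added after the values were seen, the SD at 80 tags or more was 0.13. Counts under such a ceiling need not vary like independent counts, which bears on the counting SD and on the ratio intervals of tall peaks. The parts of these in the spread were not tested, and how much of their preparation the libraries share cannot be read from the peak lists, so the small spread says nothing of how repeatable the ratios are.

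**Figure D5:**
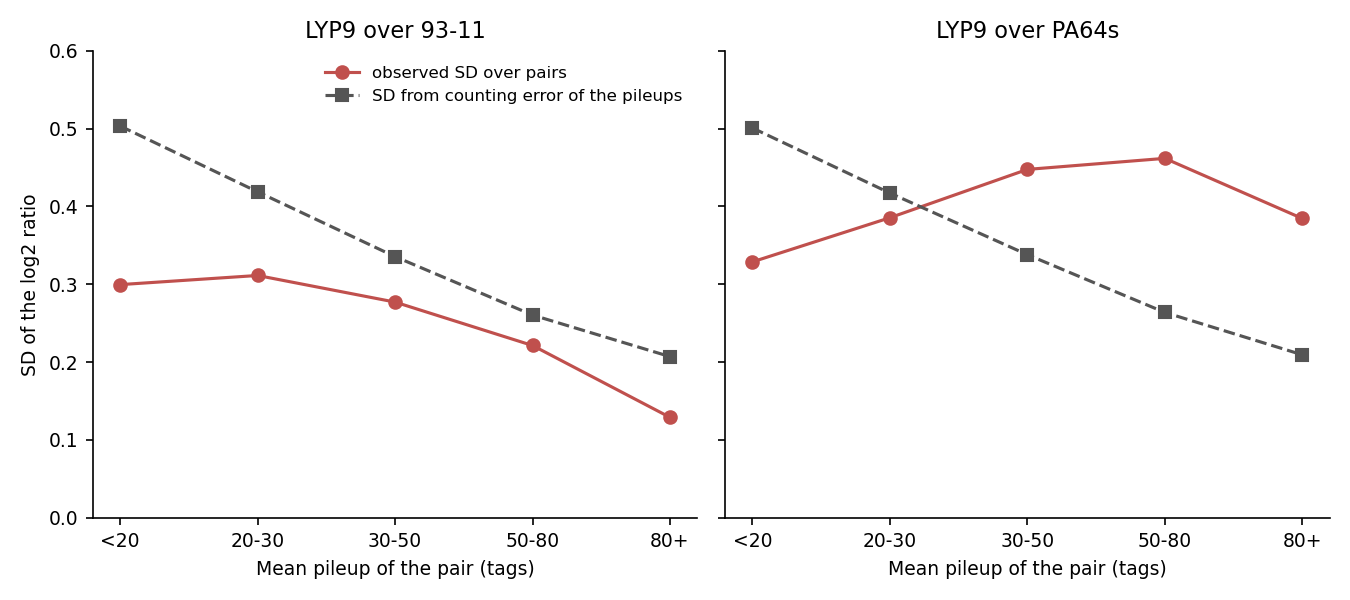
SD of the log2 ratio of scaled pileup over pairs of shared peaks (y axis, red line) and the SD that independent counts of the same pileups would give (grey dashed line), by mean pileup of the pair in tags (x axis), for LYP9 over 93-11 on the left and LYP9 over PA64s on the right. For 93-11 the observed SD is below the counting SD in every class, for PA64s it is above it from 30 tags upwards.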

How the data were processed

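5hmC capture libraries of LYP9, 93-11 and PA64s panicles, 1 per line, were read from 3 peak lists. The submitters' processing notes name BWA 0.5.8 as the aligner. MACS 2.0.9 called the peaks of each library, per the file headers, with no control, a q-value cutoff of 0.01, an effective genome of 390 Mb and at most 2 tags per position. No header or label names the build. The deposited pileup is a coverage signal in tags at the summit, the fold enrichment a deposited ratio to the library's own background, and the deposited −log10 p and −log10 q are those of MACS. All these values are the authors'. The −log10 p served as the score that ranks peaks within a list.

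Peaks on chromosomes 1 to 12 were shared at an overlap of 1 bp. Pairs took the largest overlap, then the nearest summits. Pileup was scaled to 1000000 of the tags in the header. Shares carry Clopper-Pearson 95% intervals, medians binomial order-statistic intervals over pairs, and ratios exact intervals of 2 counts. With 1 library per line, no p-value was computed. The SD from counting is the root mean of the summed inverse pileups on the log2 scale.

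Regions named are the 8 pairs with the highest and the 8 with the lowest ratio at 20 tags or more in a library, the 5 best-scoring peaks of each list absent from the other, and the 3 windows of 1 Mb with the largest surplus in each line, ties kept. Others are marked as chosen after their values were seen. The comparison and its rules were chosen with earlier results of these data known. The gene table at hand is of another build and was not used here. Python 3.11.15, numpy 2.4.6, pandas 2.3.3, scipy 1.17.1 and matplotlib 3.10.9 were used. The routines were tested on simulated peaks with taller pileups, wide spacing and larger changes than most here. That test checks the code and not the calls in these data.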

Additional observations from a re-analysis of the deposited data

Results flagged for a closer look

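The rule of the comparison left out peaks beyond the nuclear chromosomes. LYP9 had 25 peaks on the chloroplast sequence against 2 in 93-11 and 28 in PA64s. On the mitochondrial sequence LYP9 had 114 peaks, 93-11 105 and PA64s 121. Both were raised because they are signal in sequences that the comparison does not use.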

How the results depend on the processing

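No paired analysis was possible because each line had 1 library, and for the same reason no replicate could be left out. The share of LYP9 peaks found in 93-11, 71.9%, was 65.5% when 50% of both peaks had to overlap, 83.5% for peaks at or above the pooled median −log10 p of 14.86, 69.6% with both lists cut to 3489 peaks and 77.1% when peaks up to 500 bp apart counted. The share of 93-11 peaks found in LYP9, 63.0%, was 57.6%, 76.2%, 69.2% and 68.9% under the same settings. Lists of equal length make the shares of both lines nearly equal by construction. The median ratio, 0.942, was 0.949 with pileups not divided by tags, 0.965 with division by tags and extension length and 0.983 with fold enrichments. By chromosome, medians on the fold enrichment scale ran from 0.950 to 1.01, and those of chromosomes 3 and 10 were above 1 (1.01 for both). By length class they ran from 0.974 to 0.994. Pairs 1.5-fold higher in LYP9 numbered 6, and lower 45, among peaks at or above the pooled median −log10 p, where fewer pairs remain. At 2-fold they numbered 3 and 4. On the fold enrichment scale 33 pairs were higher and 65 lower by 1.5-fold, against 23 higher and 109 lower by scaled pileup. The median ratio of strong pairs without a PA64s peak within 500 bp, 0.786, was 0.864 with fold enrichments and 0.837 at a mean pileup of 80 or more; these settings were chosen after seeing the data. Leaving out each chromosome moved the shares to between 71.1% and 72.7% for LYP9 and between 62.0% and 63.9% for 93-11. The numbers of tags limit weak peaks most: a peak missing from 1 list can be a miss of the cutoff. The pileup at which this ends was not determined. Of peaks with 19 to 23 tags, 273 of 815 in LYP9 and 422 of 860 in 93-11 were still not shared.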
